A study of Mus musculus with 48 samples.

Results

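The genes described here encode the proteasome: every gene whose symbol begins with Psma, Psmb, Psmc, Psmd, Psme, Psmf or Psmg followed by a digit, kept where its mean reached a CPM of 1 (counts scaled by library size) over the 24 libraries of a tissue. The pattern matched 50 of 25229 gene symbols, and the same 48 passed in each tissue. Psma8, the alpha subunit of the testis proteasome, and Psmb11, the thymus-specific catalytic subunit, did not reach 1 CPM in either: they averaged 0.217 and 0.168 CPM in the arcuate and 0.243 and 0.605 CPM in the nodose libraries. Just inside were Psmb9 at 1.48 CPM in the arcuate and Psmc3ip at 3.15 CPM in the nodose libraries. All 48 passed the filter on low counts in each tissue and were tested. The members fell into 7 alpha-ring genes, 7 constitutive beta-ring genes, 3 immunoproteasome genes, 6 ATPases and 11 non-ATPase subunits of the regulatory particle, 5 activators, 1 inhibitor and 7 assembly chaperones. Psmc3ip, a meiotic recombination factor, matched by symbol and is not a proteasome subunit.

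The libraries came from male C57Bl/6J mice that all carried floxed Rev-erba and Rev-erbb alleles (Nr1d1 and Nr1d2), were 10 to 12 weeks old and ate chow. Control mice received AAV8-TBG-EGFP and HepDKO mice received AAV8-TBG-Cre by tail vein. TBG is a hepatocyte promoter, so the deletion was aimed at the liver and not at the tissues sequenced. Arcuate punches from the hypothalamus were pooled from 3 mice per library (the series design text gives 3 to 4), and the left nodose ganglion, where the sensory neurons of the vagus nerve sit, was pooled from 4 mice. Collection was at zeitgeber time (ZT) 4, 10, 16 and 22 hours in a 24-h light and dark cycle, with 3 libraries in each of 16 groups of tissue, genotype and time. The labels do not say whether the pools of a group shared a litter or a day, so the p-values measure the spread between these libraries.

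The proteasome is the protease that degrades ubiquitin-tagged proteins in the cytosol and nucleus. Its core is a barrel of alpha and beta rings, and 3 beta subunits carry the active sites: Psmb6 (caspase-like), Psmb7 (trypsin-like) and Psmb5 (chymotrypsin-like). Interferon induces replacements for these, Psmb9, Psmb10 and Psmb8, which make the immunoproteasome and favour peptides that fit MHC class I molecules. The regulatory particle binds ubiquitin, unfolds the substrate with its ATPase ring and feeds it into the core; alternative caps such as Psme1 with Psme2, or Psme4, open the core without ubiquitin. NFE2L1 drives many subunit genes together when proteasome capacity falls short, through antioxidant response elements in their promoters.

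Promoter sequence was read for 41 of the 48 members from RefSeq (GRCm38.p6), as the 250 bases before each annotated start, and searched on both strands. The element TGACNNNGC, the antioxidant response motif, was found in 5 of 41 members (12.2%) and in 11.5% of all 27025 genes with a promoter of this length, a gene being counted where any of its promoters holds the motif. Both constitutive catalytic genes shown next hold it, in capitals, close to the start; the Psmb5 sequence stops at 28 bases before the start.

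Psmb5, chr14:54618023-54618245, minus strand: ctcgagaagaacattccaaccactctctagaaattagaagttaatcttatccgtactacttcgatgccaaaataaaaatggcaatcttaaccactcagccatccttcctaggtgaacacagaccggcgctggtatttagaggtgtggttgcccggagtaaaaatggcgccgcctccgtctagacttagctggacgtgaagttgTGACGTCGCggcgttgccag

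Psmb6, chr11:70525107-70525356, plus strand: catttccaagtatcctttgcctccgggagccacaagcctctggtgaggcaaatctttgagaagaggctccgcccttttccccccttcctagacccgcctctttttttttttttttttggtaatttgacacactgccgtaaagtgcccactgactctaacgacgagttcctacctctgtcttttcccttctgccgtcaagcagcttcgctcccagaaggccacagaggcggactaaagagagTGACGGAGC

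Of the immunoproteasome genes, Psmb8 held the gamma-activated motif TTCNNNGAA; it stood in 2 of 41 members (4.88%, Psmb8 and Psmg1) and in 8.13% of all genes. The 30 bases around it, which precede the RefSeq start but lie in an exon of Psmb8 in GENCODE, are given because Psmb8 carried the largest tissue difference among the catalytic genes.

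Psmb8, chr17:34198088-34198117, plus strand: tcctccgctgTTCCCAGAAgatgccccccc

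CCGGAAG, the core that ETS factors bind, differed most between members and the rest: 13 of 41 members (31.7%) against 7.83% of all genes. Those 13 genes span the alpha ring (Psma6), the regulatory particle (Psmc1, Psmc2, Psmc6, Psmd2, Psmd4, Psmd6, Psmd11, Psmd12), the activators Psme3 and Psme4, the chaperone Psmg1, and Psmc3ip. Pieces of 30 bases around the motif follow for 4 genes whose levels differed between tissues, with the motif or its complement in capitals. By the GENCODE gene spans, the Psma6 piece lies within the gene and the Psme4 piece overlaps its start.

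Psma6, chr12:55398682-55398711, plus strand: agagccaccacCCGGAAGcccgcggaccgc

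Psmc2, chr5:21785180-21785209, plus strand: accagtgagcaCTTCCGGgatggggctcgc

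Psmd11, chr11:80428585-80428614, plus strand: taggaacgcgagggcgggtCTTCCGGgtgt

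Psme4, chr11:30771711-30771740, plus strand: gtggccccgccCCGGAAGtgacttgaggcc

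AGGTCA, the motif that REV-ERB and ROR nuclear receptors bind, is shown because Rev-erba and Rev-erbb were the targeted genes; the Psmb10 piece overlaps the start of the gene in GENCODE. It stood in 10 of 41 members (24.4%) and in 15.8% of all genes. The CCAAT box, bound by NF-Y, was in 14 members (34.1%) against 37.5% of all genes (33.8% of all 32851 promoters), and the E-box CACGTG, bound by CLOCK and BMAL1, in 4 (9.76%) against 6.86%. The interferon-stimulated response element was in 3 (7.32%) against 3.46%, and the D-box TTANGTAA in 0 against 2.44%. A match is a description of these letters in this window.

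Psmb10, chr8:105938417-105938446, minus strand: gatgccctcttcTGACCTtggtgggcatgt

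Psmc4, chr7:28050122-28050151, minus strand: atccggcccgtcAGGTCAacccgcagcggt

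Psmc5, chr11:106256010-106256039, plus strand: tcacaaaactagTGACCTccagtagagcct

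Psmd2, chr16:20651426-20651455, plus strand: ctgtcttcaggaTGACCTtctcatcgtacc

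Several facts of the libraries bear on every comparison. Depth was 15483922 to 20399718 counts per arcuate library (median 17324244) and 1813994 to 10422914 per nodose library (median 6641665). Neuronal markers summed to a median of 2921 CPM in the arcuate and 22.1 CPM in the nodose libraries, and of 5 vagal sensory neuron markers 4 had a median of 0 CPM in the nodose libraries, P2rx2, Scn10a and Prdm12 among them, and 1 (Trpv1) a median of at least 1 CPM. Skeletal muscle markers (Acta1, Ckm, Mylpf, Tnnt3 and Myh4) summed to 3454 to 65313 CPM in the nodose libraries (median 27966) and to a median of 6.14 CPM in the arcuate; Schwann cell markers summed to medians of 22323 and 1640 CPM. The nodose libraries are therefore called by their label only. The arcuate libraries were prepared by Novogene and the nodose libraries with KAPA RNA HyperPrep with RiboErase, so a tissue difference and a preparation difference cannot be told apart. Of the targeted genes, Nr1d1 spanned 33.8 to 61.3 CPM in Control and 35.9 to 67.6 CPM in HepDKO arcuate libraries, and its overall genotype difference was 0.06 (SE 0.0433, edgeR adjusted p = 0.673) there and 0.06 (SE 0.141, adjusted p = 1.00) in the nodose. Nr1d2 differed by -0.07 (SE 0.0511, adjusted p = 0.698) and 0.07 (SE 0.133, adjusted p = 1.00). Xist, a transcript of female cells, had 1914 counts in the arcuate HepDKO ZT10 library 3 (the next highest arcuate library had 10) and 1694 in the nodose HepDKO ZT10 library 2 (next highest 13), though all mice were labelled male. Without either library no member was called in its tissue's genotype tests.

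The first question was how strongly each class of subunit was expressed. Proteasome genes took 0.310 to 0.389% of all counts in the arcuate libraries and 0.220 to 0.291% in the nodose libraries. To compare genes with each other, mean CPM, scaled over both tissues, was divided by the length of each gene's merged exons (GENCODE, GRCm38). On this scale the median member stood at 33.5 CPM per kb in the arcuate and 33.0 in the nodose libraries. Class medians in the arcuate were 48.6 CPM per kb for the alpha ring, 64.6 for the constitutive beta ring, 50.6 for the ATPases and 47.0 for the other regulatory subunits. Medians in the nodose libraries were 43.8, 44.3, 50.9 and 27.4 CPM per kb in the same order. Assembly chaperones, which guide the rings together and leave before the complex is complete, were lower, at 10.4 and 6.75 CPM per kb.

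Within the beta ring the genes for the 3 active sites were unequal. Psmb6 stood at 95.8 ± 9.24 CPM per kb (SD over 24 libraries) and Psmb7 at 94.7 ± 6.43 in the arcuate, while Psmb5 stood at 26.6 ± 3.59, the lowest constitutive beta gene. In the nodose libraries the order was Psmb7 at 70.1 ± 16.6, Psmb6 at 63.9 ± 9.91 and Psmb5 at 11.9 ± 5.68. The ranges of Psmb6 and Psmb7 overlapped in each tissue, and Psmb5 was lower than both. The means of the immunoproteasome genes lay below those of their constitutive partners: in the arcuate Psmb10 stood at 17.3 ± 1.95, Psmb8 at 2.01 ± 0.413 and Psmb9 at 1.03 ± 0.278 CPM per kb, and in the nodose libraries at 9.44 ± 3.27, 6.13 ± 1.36 and 2.54 ± 0.978. Psmb9 was the lowest of all 48 members in both tissues. The highest was Psmc5, an ATPase, at 109 CPM per kb in the arcuate and Psmc3, another ATPase, at 79.1 in the nodose libraries. In 24 of the 48 members the gene overlaps another annotated gene, among them Psmb9 with Tap1, Psmb8 with Gm20496 and Psmb7 with Nek6, each on the opposite strand; the strand setting of the counting is not given in the sources used here, so reads of such partners cannot be told apart. Psme2b is a near copy of Psme2, and how reads were split between them is not stated.

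**Figure D1:**
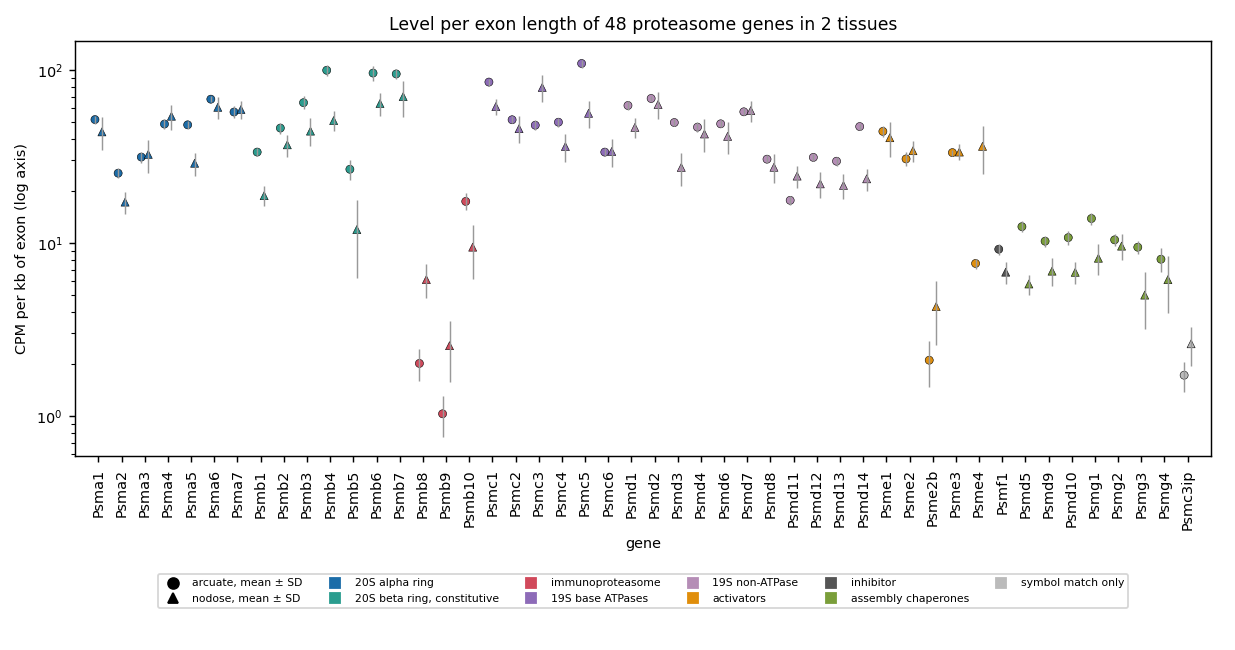
Mean CPM per kb of merged exon (log axis) for the 48 members in the arcuate and nodose libraries, ordered by class, with bars of 1 SD over 24 libraries per tissue. The immunoproteasome genes Psmb9 and Psmb8 have means between 1.03 and 6.13 CPM per kb, below the means of the constitutive ring subunits; in the nodose libraries the SD bars of Psmb8 (6.13 ± 1.36) and Psmb5 (11.9 ± 5.68) overlap.

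Some members are neighbours on a chromosome. Psmb8 (chr17:34197721-34201454) and Psmb9 (chr17:34181987-34187764) lie 9956 bases apart in the MHC region, beside the peptide transporter Tap1. Psme1 (chr14:55578123-55581529) and Psme2 (chr14:55587441-55591113), the paired subunits of one activator cap, lie 5911 bases apart. Psmb5 (chr14:54614119-54618022) lies 3410 bases from Psmb11, which is not among the 48 members. All coordinates are in GRCm38.

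The next comparison set the level in the nodose libraries against that in the arcuate libraries. Most proteasome genes were lower in the nodose libraries, with Psme4, the immunoproteasome genes Psmb8 and Psmb9, the Psme2 near copy Psme2b (0.98, log2) and the ATPase Psmc3 the main exceptions. In edgeR's quasi-likelihood test over 17478 genes, 41 of 48 members (85.4%) passed an adjusted p of 0.05, with 9 higher and 32 lower. Of all genes tested, 92.1% passed (45.6% higher, 46.6% lower), so the share called says nothing particular of the members. The median member differed by -0.36 (log2, nodose minus arcuate) and the median gene by -0.01. In 10 of 48 members (20.8%) the libraries of the tissues did not overlap, against 48.2% of all genes. In bulk tissue, fewer cells of a type and less RNA per cell cannot be told apart.

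Among the activators, Psme4 (PA200, a single-chain cap known from DNA repair and histone degradation) showed the widest gap. Its 24 arcuate libraries ran from 40.3 to 56.3 CPM (median 49.1) and its 24 nodose libraries from 107 to 425 CPM (median 242). The ranges did not overlap, and the nodose level was 4.68-fold higher (log2 difference 2.23, SE 0.0870, adjusted p = 2.25e-24). Psme2b was higher by 0.98 (SE 0.155, adjusted p = 2.14e-07) and Psme2 by 0.15 (SE 0.0412, adjusted p = 0.000871). Psme1, the partner of Psme2, differed by -0.13 (95% interval -0.25 to -0.004, adjusted p = 0.0530) and Psme3, a nuclear cap, by 0.009 (adjusted p = 0.823), and neither passed. Psme1 passed with the same sign in edgeR with RLE scaling and in DESeq2.

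All 7 constitutive beta genes were lower in the nodose libraries. Psmb5, the chymotrypsin-like subunit, ran from 19.2 to 33.8 CPM in the arcuate (median 23.0) and from 5.67 to 31.8 CPM in the nodose libraries (median 10.2). The ranges met only through 1 library, nodose HepDKO ZT22 library 3 at 31.8 CPM, and the level was 2.29-fold lower (log2 difference -1.19, SE 0.0961, adjusted p = 8.14e-15). Psmb4, a structural beta subunit, differed by -0.97 (SE 0.0417, adjusted p = 2.14e-24), without overlap. Psmb1 differed by -0.84 (adjusted p = 4.12e-25), Psmb6 by -0.59 (SE 0.0469, adjusted p = 2.87e-15) and Psmb7 by -0.45 (SE 0.0576, adjusted p = 2.01e-09).

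The immunoproteasome genes did not move together. Psmb8, which replaces Psmb5, ran from 2.18 to 5.51 CPM in the arcuate (median 3.23) and from 6.52 to 14.98 CPM in the nodose libraries (median 9.79). These ranges did not overlap, and the nodose level was 3.04-fold higher (log2 difference 1.60, SE 0.0926, adjusted p = 6.71e-20). Psmb9, which replaces Psmb6, ran from 0.754 to 2.21 CPM and from 0.945 to 6.58 CPM, with overlap, and was 2.45-fold higher (log2 difference 1.29, SE 0.137, adjusted p = 1.47e-11). Psmb10, which replaces Psmb7, was lower (-0.90, SE 0.0757, adjusted p = 1.93e-14), with 18.4 to 28.2 CPM in the arcuate and 6.66 to 29.2 CPM in the nodose libraries. The highest nodose library of Psmb10 was again HepDKO ZT22 library 3. Markers of macrophages, cells known to express immunoproteasome genes, summed to medians of 219 CPM in the arcuate and 261 CPM in the nodose libraries. Interferon-stimulated genes summed to medians of 40.0 and 118 CPM, T and NK cell markers to 0.575 and 3.88 CPM, endothelial markers to 70.2 and 448 CPM, and fibroblast markers to 6175 CPM in the nodose against 81.5 CPM in the arcuate; their part in the differences was not tested.

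**Figure D2:**
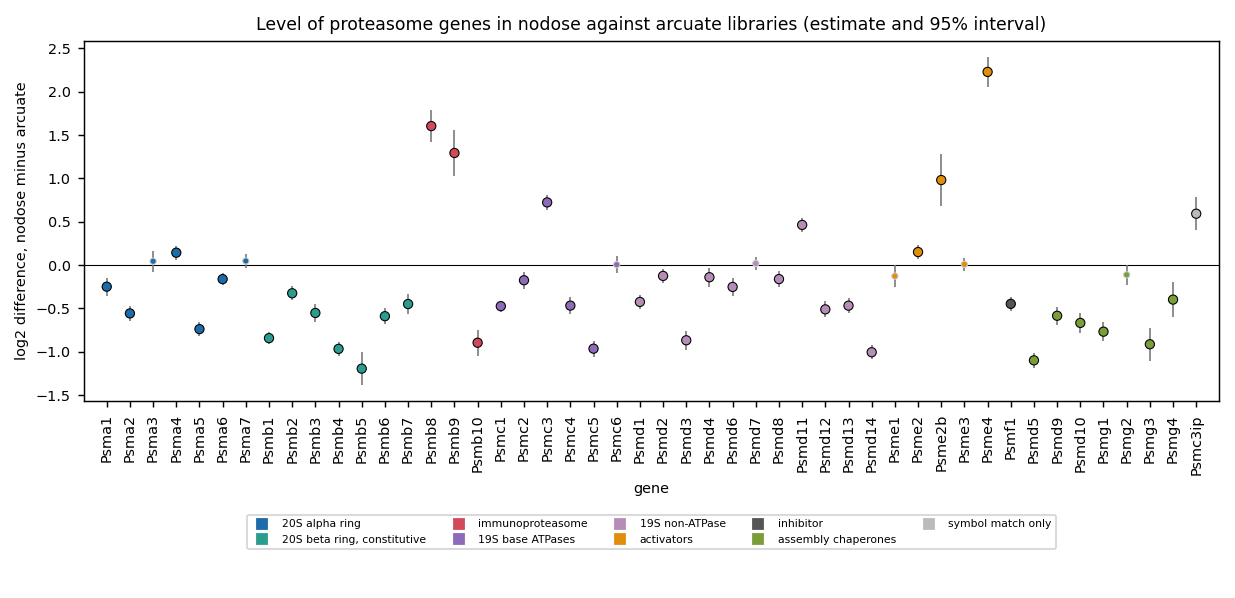
Log2 difference of each member, nodose minus arcuate, with its 95% interval, ordered by class, from 24 libraries per tissue; small points did not pass. Psme4 at 2.23, Psmb8 at 1.60 and Psmb9 at 1.29 stand above 0 and the constitutive beta genes all stand below 0, down to Psmb5 at -1.19.

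In the regulatory particle and the alpha ring most genes were lower in the nodose libraries too. Of the 6 ATPases, 4 were lower, led by Psmc5 (-0.96, SE 0.0465, adjusted p = 1.20e-22) and Psmc1 (-0.47, SE 0.0329, adjusted p = 3.49e-17), and Psmc3 was 1.65-fold higher (log2 difference 0.72, SE 0.0465, adjusted p = 2.65e-18), without overlap. Psmc3 overlaps the zinc transporter gene Slc39a13. Of the 11 non-ATPase subunits, 9 were lower, led by the deubiquitinase Psmd14 (-1.005, SE 0.0406, adjusted p = 1.90e-25) and the scaffold subunit Psmd3 (-0.87, SE 0.0553, adjusted p = 2.01e-18), and Psmd11 was higher (0.46, SE 0.0423, adjusted p = 2.10e-13). In the alpha ring 4 of 7 were lower, led by Psma5 (-0.74, SE 0.0432) and Psma2 (-0.56, SE 0.0423), while Psma4 was higher by 0.14 (SE 0.0416, adjusted p = 0.00156).

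Of the 7 assembly chaperones, 6 were lower in the nodose libraries. Psmd5, a chaperone of the ATPase ring, ran from 42.9 to 60.7 CPM in the arcuate and 15.9 to 31.4 CPM in the nodose libraries, without overlap (-1.10, SE 0.0423, adjusted p = 3.26e-26). Psmg3, a chaperone of the core, differed by -0.91 (SE 0.0979, adjusted p = 2.00e-11). Psmf1, the inhibitor, was lower (-0.45, SE 0.0431, adjusted p = 1.03e-12), and Psmc3ip was higher (0.59, SE 0.0979). Psma3, Psma7, Psmc6, Psmd7 and Psmg2 did not pass, nor did Psme1 and Psme3. Psmb11, outside the membership rule, averaged 0.157 CPM in the arcuate and 0.641 CPM in the nodose libraries.

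The balance of immuno to constitutive catalytic subunits was read within each library as a ratio of counts, which is not corrected for gene length and is compared only between libraries. Psmb8 over Psmb5 had a median of 0.138 in the arcuate (0.0948 to 0.188) and 0.984 in the nodose libraries (0.426 to 1.89). The ranges did not overlap. Psmb9 over Psmb6 had a median of 0.0182 (0.0112 to 0.0280) and 0.0617 (0.0263 to 0.156), and Psmb10 over Psmb7 had 0.212 (0.167 to 0.240) and 0.149 (0.0818 to 0.294). The medians therefore differed in direction by active site, which was not tested on the ratios. The ranges of Psmb9 over Psmb6 overlapped, and the arcuate range of Psmb10 over Psmb7 lay inside its nodose range. By genotype, the mean log2 of Psmb8 over Psmb5 was -2.78 ± 0.241 (SD, n = 12) in Control and -3.00 ± 0.286 in HepDKO arcuate libraries, and 0.04 ± 0.550 and -0.11 ± 0.552 in the nodose libraries. The other pairs went the other way in the arcuate. Psmb10 over Psmb7 was -2.32 ± 0.146 in Control and -2.24 ± 0.108 in HepDKO, and Psmb9 over Psmb6 was -5.86 ± 0.358 and -5.80 ± 0.378. In the nodose libraries these pairs were -2.69 ± 0.382 and -2.78 ± 0.482, and -4.01 ± 0.772 and -3.97 ± 0.392. The genotype differences in the ratios were not tested.

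Genes that work with the proteasome, from lists outside the membership rule, were read in the same test, in which 45.6% of all genes were higher and 46.6% lower. Of 10 genes of antigen presentation and its interferon control, 10 were higher in the nodose libraries: Nlrc5, the transactivator of MHC class I, by 2.704, B2m by 2.23, H2-K1 by 1.77, Irf1 by 1.76 and the peptide transporter Tap1 by 1.26 on the log2 scale. Of 7 genes of transcriptional control, 7 were higher, with Nfe2l2 at 2.48, the protease Ddi2 that activates NFE2L1 at 1.02, and Nfe2l1 itself at 0.39. Other proteasome parts went with the subunits: 6 of 8 were lower, led by the deubiquitinase Usp14 (-2.04) and Txnl1 (-1.32), while Ecpas, a scaffold that binds the assembled particle, was higher (1.09), as was Sem1 (0.68). Of 12 genes of ubiquitin and shuttling, 8 were lower, led by the shuttle Ubqln2 (-2.92), the polyubiquitin gene Ubb (-1.64) and Rad23b (-1.08), and 2 were higher.

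The genotype comparison asked whether proteasome transcripts in these tissues differed after hepatocyte deletion of Rev-erba and Rev-erbb. None of the 48 members passed in either tissue, overall or at any time point. In the arcuate the background was 0% of 16102 genes in the overall test and at ZT4, ZT10, ZT16 and ZT22, and in the nodose 0% of 14867 genes in each. At an unadjusted p under 0.05, there were 4 members overall in the arcuate (1387 of 16102 genes) and 4 in the nodose (497 of 14867 genes). DESeq2 called 0 members in either tissue. The test of a genotype difference that differs between tissues called 0 members, with a background of 0% of 17478 genes; the lowest p was that of Psmb1 (0.17, adjusted p = 0.992), and the 8 catalytic and activator genes ran from -0.08 (Psmb9) to 0.13 (Psmb5).

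Psmb5 had the lowest p among the members in the arcuate overall and at ZT4, though it did not pass. Psmb5 at ZT4 stood at 24.3, 23.9 and 21.5 CPM in Control and at 31.2, 26.9 and 35.9 CPM in HepDKO libraries. All 3 HepDKO libraries lay above all 3 Control libraries, with a log2 difference of 0.43 (SE 0.108, adjusted p = 0.255). Psmb10 at ZT4 had 20.8, 22.02 and 24.3 CPM in Control and 27.4, 26.4 and 29.5 CPM in HepDKO libraries, again without overlap (0.31, SE 0.0936, adjusted p = 0.289). At the other times the Psmb5 groups overlapped: at ZT10 24.2, 25.5 and 27.3 against 26.4, 28.4 and 25.6 CPM, at ZT16 24.3, 22.1 and 22.2 against 30.6, 24.5 and 20.7 CPM, and at ZT22 23.1, 24.1 and 25.8 against 24.5, 24.1 and 25.9 CPM. The mean over the 4 times was 24.0 ± 1.68 CPM (SD, n = 12) in Control and 27.0 ± 4.00 CPM in HepDKO, a log2 difference of 0.17 (95% interval 0.06 to 0.27, adjusted p = 0.392). The arcuate HepDKO ZT4 library 3 held the highest level of 24 of the 48 members among all 24 arcuate libraries. Leaving out each library in turn kept the ZT4 value of Psmb5 between 0.32 and 0.53.

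The other catalytic and activator genes gave smaller overall arcuate values: Psmb6 0.07 (SE 0.0478), Psmb7 0.06 (SE 0.0338), Psmb8 -0.04 (SE 0.122), Psmb9 0.10 (SE 0.161), Psmb10 0.13 (SE 0.0473), Psme1 0.10 (SE 0.0394) and Psme2 0.08 (SE 0.0494), with adjusted p from 0.436 to 0.933. The lowest p at the remaining times belonged to Psme2 at ZT10 (0.16), Psme1 at ZT16 (0.14) and the ATPase Psmc4 at ZT22 (0.16), and their adjusted p values were 0.999 or above. Psme2 at ZT10 fell to 0.06 without HepDKO ZT10 library 1, and Psmc4 at ZT22 to 0.10 without HepDKO ZT22 library 3. By count, 33 of 48 members were above 0 overall (median 0.03, all genes -0.004), and 36, 37, 27 and 23 at the 4 times in order. All 7 constitutive beta genes were above 0 over all times together, at ZT4 and at ZT10, 6 of 7 at ZT16 and 5 of 7 at ZT22, with a class median of 0.07 over all times. By the counts above, the share over all 48 members was lower in each case, and the other classes are not given singly. Of all genes, 47.8% were above 0 over all times. Across genes, deviations of members from their own arcuate medians correlated with GC content in HepDKO ZT4 libraries 1 and 3 (r 0.38 and 0.39). They correlated with log2 length in these (r -0.38 and -0.43) and in HepDKO ZT10 libraries 1 and 2 (r -0.50 and -0.42). Control libraries also had GC correlations, at r 0.36 in ZT10 library 3, -0.34 in ZT16 library 3 and -0.47 in ZT22 library 1. The part of these correlations in the class values was not tested. Over the 8 catalytic and activator genes, the genotype difference ran from 0.04 (Psme1) to 0.43 (Psmb5) at ZT4, from 0.04 (Psmb6) to 0.20 (Psmb9) at ZT10, from -0.16 (Psmb8) to 0.14 (Psme1) at ZT16 and from -0.19 (Psmb8) to 0.14 (Psme1) at ZT22.

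In the nodose libraries, where no member passed, most estimates lay on one side of 0 at a time; the difference between times was not called for any member in the rhythm comparison of the genotypes. Above 0 were, at ZT4, 40 of 48 members (median 0.17), 6 at ZT10 (median -0.15), 44 at ZT16 (median 0.19) and 35 at ZT22 (median 0.12), against medians of 0.01 over all genes at each of the 4 times. Averaged over the times, 43 of 48 were above 0 with a median of 0.09 (all genes 0.009). Psma1, an alpha-ring gene, had the lowest p at ZT16, with 42.0, 45.4 and 43.4 CPM in Control and 52.2, 60.0 and 62.5 CPM in HepDKO libraries. The groups did not overlap there (0.42, adjusted p = 0.844), while at ZT10 they crossed: 65.7, 69.9 and 47.5 against 43.3, 68.2 and 56.1 CPM. Psmb1, a structural beta subunit, had the lowest p overall (0.18, SE 0.0616, adjusted p = 1.00) and at ZT4 (0.34), where Control had 45.2, 47.9 and 54.4 CPM and HepDKO 67.2, 62.3 and 57.7 CPM. Psmb3 had the lowest p at ZT10 (-0.37), with 38.3, 38.6 and 37.4 against 30.1, 30.1 and 28.4 CPM. Skeletal muscle marker scores, the mean log2 CPM of the 5 markers (± SD, 3 libraries each), were 11.2 ± 1.31, 12.5 ± 0.643, 10.8 ± 1.65 and 11.6 ± 0.729 in Control at ZT4, ZT10, ZT16 and ZT22, and 12.0 ± 0.287, 12.1 ± 0.222, 11.9 ± 0.547 and 12.0 ± 0.671 in HepDKO. Control ZT4 library 1, at 9.73, and Control ZT16 library 3, at 8.86, were low, with the others of their groups between 11.6 and 12.2 and between 11.5 and 11.9. Without the first, 35 members were above 0 averaged over the times, and without the second 37, with 39 at ZT16. With the muscle score as a covariate, 29 of 48 members were above 0 averaged over the times, 9 at ZT10 and 27 at ZT16; the part of muscle content in the differences was not tested.

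**Figure D3:**
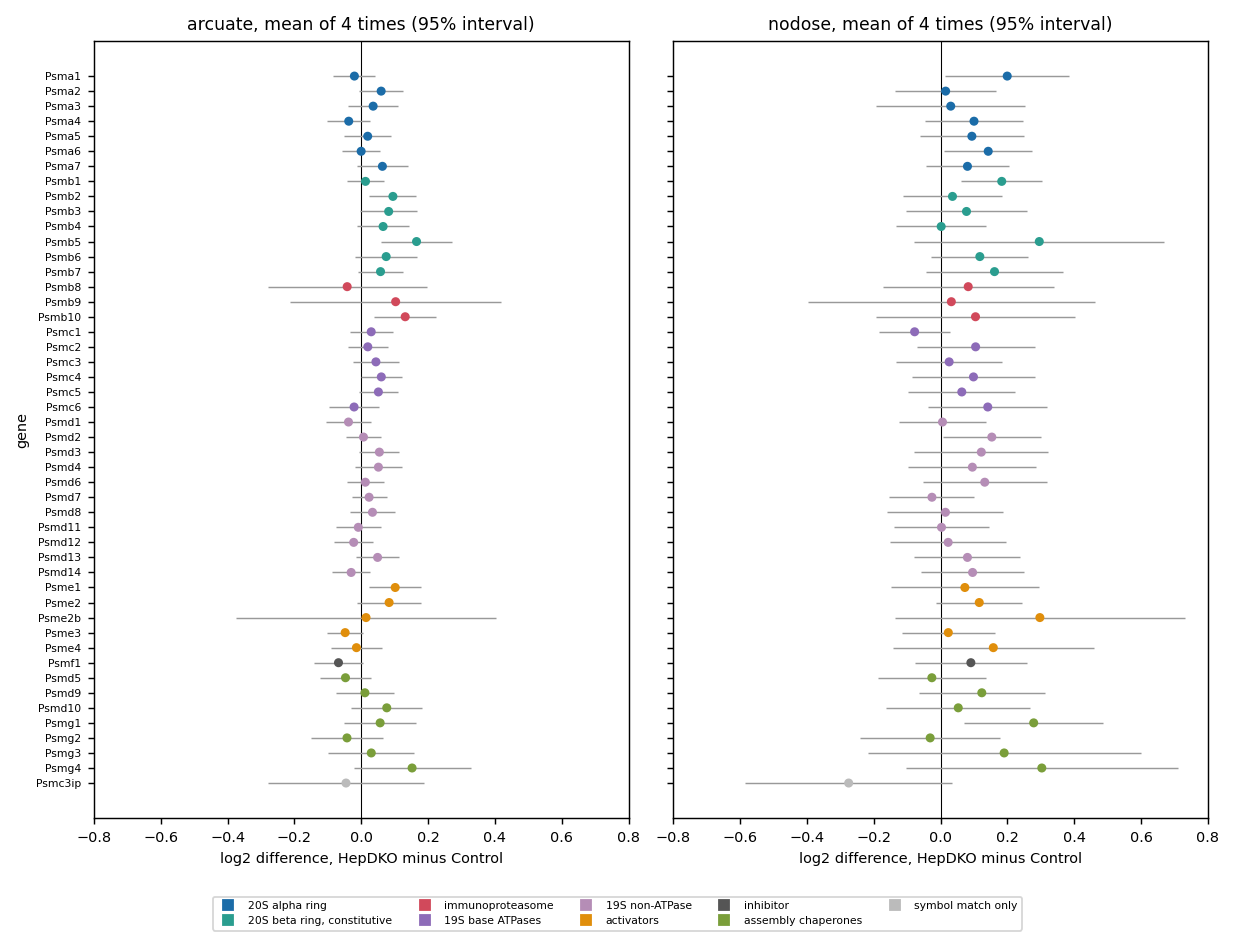
Log2 difference of each member, HepDKO minus Control, averaged over the 4 times, with its 95% interval, in the arcuate (left) and nodose (right) libraries, 12 per genotype and tissue. No member passed; 33 of 48 arcuate and 43 of 48 nodose estimates lie above 0, and the nodose intervals are wider.

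Psme2, an activator subunit, had the lowest nodose p at ZT22, with 29.4, 30.2 and 24.1 CPM in Control and 33.3, 34.3 and 42.7 CPM in HepDKO libraries. The groups did not overlap (0.39, SE 0.130, adjusted p = 0.877). Psmb5 at ZT22 differed by 0.93 (SE 0.376, adjusted p = 0.877), but its HepDKO libraries stood at 7.87, 9.47 and 28.9 CPM against 6.19, 7.54 and 11.1 CPM in Control, so only HepDKO ZT22 library 3 lay above the Control range. That library was also highest for Psmb10 (26.6 CPM, with 10.7 and 10.1 CPM in the others of its group). It was highest for 18 of the 48 members. Its deviations of members from their own nodose medians correlated with gene GC content (r 0.67 across genes, which are not independent replicates). The next largest nodose values were r -0.51 in HepDKO ZT16 library 3 and 0.42 in Control ZT4 library 2. Averaged over the times, the nodose values of the catalytic and activator genes were 0.30 for Psmb5 (SE 0.191), 0.12 for Psmb6, 0.16 for Psmb7, 0.08 for Psmb8, 0.03 for Psmb9, 0.10 for Psmb10, 0.07 for Psme1 and 0.12 for Psme2, all at an adjusted p of 1.00. By time they ran from -0.64 (Psmb9) to 0.43 (Psmb5) at ZT4, from -0.37 (Psmb5) to 0.12 (Psme2) at ZT10, from -0.19 (Psmb10) to 0.44 (Psmb9) at ZT16 and from 0.02 (Psmb6) to 0.93 (Psmb5) at ZT22.

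The time course asked whether proteasome transcripts followed a 24-h rhythm, tested from the 4 times as the mean-to-peak amplitude on the log2 scale. Of the 48 members, 0 passed in the arcuate averaged over genotypes, against 3.86% of all genes, and 0 in the nodose, against 1.33%. At an unadjusted p under 0.05, there were 11 of 48 members in the arcuate (3479 of 16102 genes) and 2 of 48 in the nodose (1898 of 14867 genes). The count was also 0 in each genotype alone, against 0.261% of all genes in Control and 0.379% in HepDKO arcuate libraries, and 0.242% and 0.121% in the nodose. The difference in rhythm between genotypes called 0 members, with a background of 0% in each tissue.

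Psmf1, the inhibitor, came nearest in the arcuate. In time order, Control libraries stood at 42.9, 43.5 and 39.7 CPM, then 42.6, 39.0 and 38.2, then 35.9, 38.0 and 39.3, then 37.0, 41.9 and 42.5. HepDKO libraries stood at 40.1, 38.8 and 44.3, then 41.5, 41.0 and 38.2, then 33.8, 34.1 and 36.0, then 38.0, 38.8 and 34.2 CPM. ZT16 was lowest in both genotypes, and the fitted amplitude was 0.104 (SE 0.0262) with a peak at ZT4.93 (adjusted p = 0.0516). Psmb10 followed with an amplitude of 0.126 (SE 0.0335, adjusted p = 0.0687). DESeq2 called both, at an adjusted p of 0.0271 for Psmf1 and 0.0399 for Psmb10, and leaving out 1 library moved the edgeR count between 0 and 2. The remaining catalytic and activator genes had arcuate amplitudes of 0.0962 for Psmb5, 0.0738 for Psmb6, 0.0611 for Psmb7, 0.0947 for Psmb8, 0.240 for Psmb9, 0.0552 for Psme1 and 0.0669 for Psme2, with adjusted p from 0.241 to 0.738.

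**Figure D4:**
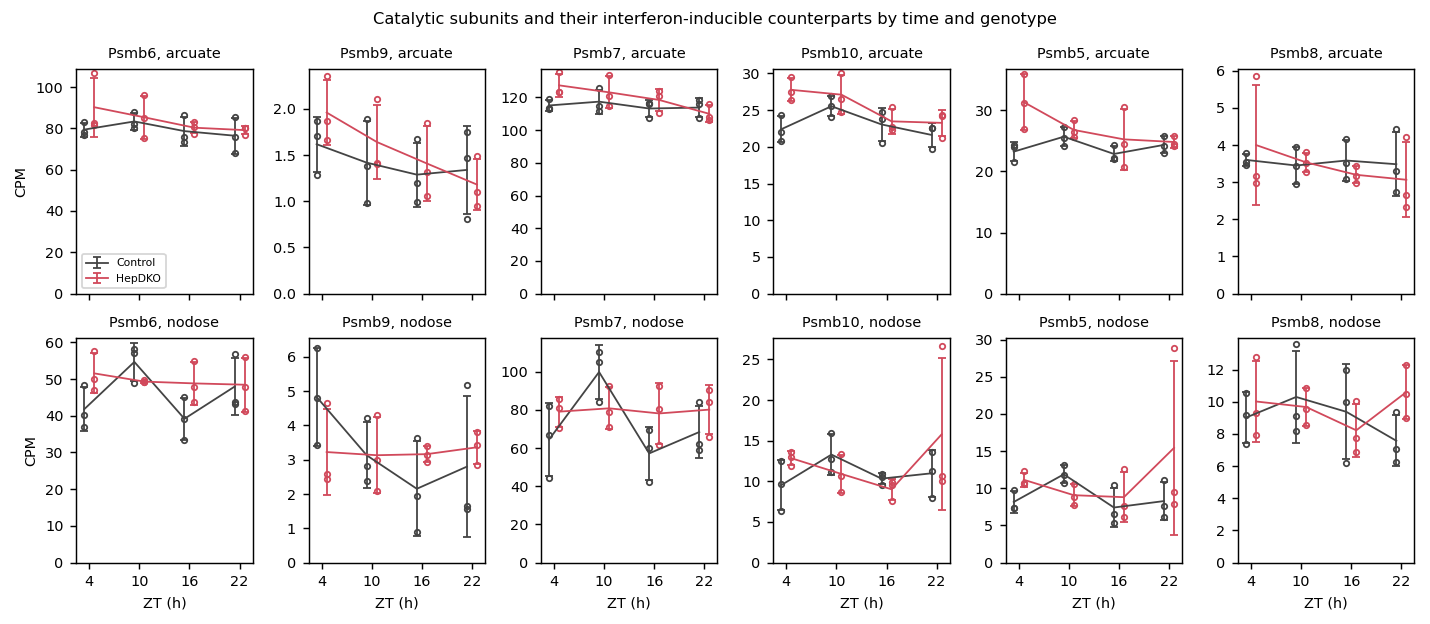
CPM of the catalytic genes by ZT in each library (points) with group means (lines), Control and HepDKO, 3 libraries per group, in the arcuate and nodose libraries. Arcuate Psmb5 at ZT4 shows HepDKO libraries at 26.9 to 35.9 CPM above Control at 21.5 to 24.3 CPM, and nodose Psmb5 at ZT22 shows 1 HepDKO library at 28.9 CPM.

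Within one genotype the lowest p went to Psmc3 in arcuate Control (amplitude 0.103, adjusted p = 0.530), Psmf1 in arcuate HepDKO (0.137, adjusted p = 0.133), Psmb2 in nodose Control (0.213, adjusted p = 0.520) and Psmb10 in nodose HepDKO (0.372, adjusted p = 0.711). Averaged over genotypes in the nodose it went to Psma4 (0.160, adjusted p = 0.295). The nodose amplitudes of the catalytic and activator genes were 0.122 for Psmb5, 0.0704 for Psmb6, 0.150 for Psmb7, 0.111 for Psmb8, 0.284 for Psmb9, 0.130 for Psmb10, 0.168 for Psme1 and 0.00742 for Psme2, with adjusted p from 0.552 to 0.997. In one genotype these 8 genes ran from 0.0103 (Psmb8) to 0.163 (Psmb9) in arcuate Control, from 0.0305 (Psme1) to 0.332 (Psmb9) in arcuate HepDKO, from 0.108 (Psmb6) to 0.571 (Psmb9) in nodose Control and from 0.0119 (Psmb7) to 0.410 (Psmb5) in nodose HepDKO. For the genotype difference in rhythm it went to Psma1 in the arcuate (0.109, adjusted p = 0.999; 0.0707 without HepDKO ZT4 library 3) and Psme2 in the nodose (0.271, adjusted p = 0.982). The 8 genes ran from 0.0580 (Psme1) to 0.209 (Psmb9) in the arcuate and from 0.0847 (Psmb6) to 0.660 (Psmb5) in the nodose for that difference. A difference in rhythm is given as the amplitude of the difference between the fitted curves. It joins amplitude and timing, is never negative, and can exceed the amplitude in either genotype. The difference in rhythm between tissues called 0 members, against 0.967% of all genes, with the lowest p for Psme4 (0.276, adjusted p = 0.495) and the 8 genes between 0.0172 (Psmb6) and 0.180 (Psmb10). The nodose HepDKO amplitudes of Psmb10 and Psmb5, and the nodose difference in rhythm of Psmb5, include HepDKO ZT22 library 3, at 26.6 CPM for Psmb10 and 28.9 CPM for Psmb5.

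Some genes around the proteasome passed the test of the averaged rhythm, where the share over all genes was 3.86% in the arcuate and 1.33% in the nodose. Nfe2l2, the oxidative stress regulator related to NFE2L1, had an amplitude of 0.181 (SE 0.0276, adjusted p = 0.00102) with a peak at ZT14.0 in the arcuate and of 0.245 (SE 0.0416, adjusted p = 0.00788) with a peak at ZT13.6 in the nodose libraries. Of the 7 genes of transcriptional control, Nfya, a CCAAT-binding subunit, passed in the arcuate as well (0.214, adjusted p = 0.00362, peak ZT16.7). Among 12 genes of ubiquitin and shuttling, Rps27a, a ubiquitin fusion gene (0.103, adjusted p = 0.0408, peak ZT8.02), and Uba6, a ubiquitin-activating enzyme (0.219, adjusted p = 0.0229, peak ZT17.7), passed there. Among 10 antigen presentation genes Tap1 passed (0.299, adjusted p = 0.0229, peak ZT5.22), and Tap1 overlaps Psmb9, whose amplitude of 0.240 did not pass (adjusted p = 0.361). Of 8 other proteasome parts 0 passed, and in the nodose 0 passed in these last 3 lists. The calls for Nfe2l2 (averaged over genotypes) and Nfya held without any 1 library; that for Rps27a was lost in 16 of 24 such fits (adjusted p up to 0.0873), for Tap1 in 5 (up to 0.0663) and for Uba6 in 4 (up to 0.0564). With a macrophage marker score as a covariate the adjusted p rose to 0.106 for Rps27a and, in the nodose, to 0.0527 for Nfe2l2.

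Variation between libraries was set beside marker scores, in 48 relations between the 8 catalytic and activator genes and 3 scores in each tissue, with Benjamini-Hochberg adjustment over the 48. In the nodose libraries Psmb7 followed the skeletal muscle score (Pearson r 0.94, Spearman rho 0.94, permutation p = 1e-05 for both, the smallest 100000 resamples can give, adjusted p = 0.00024). It ran from 42.2 to 111 CPM, with r 0.94 within Control, 0.89 within HepDKO and 0.92 without the 2 libraries farthest from the median score. Psmb6 gave r 0.88 and rho 0.87 (permutation p = 1e-05, adjusted p = 0.00024), with r 0.89 and 0.84 within the genotypes and 0.85 without the 2 farthest. Psme1 gave r 0.66 (permutation p = 0.00035, adjusted p = 0.0056) and rho 0.72 (p = 8e-05, adjusted p = 0.00128), with r 0.73 and 0.59 within the genotypes and 0.70 without the 2 farthest. The immunoproteasome genes did not pass: Psmb8 r 0.25, Psmb9 r 0.44 and Psmb10 r 0.34 with adjusted p of 0.558, 0.160 and 0.318. Nor did Psmb5 (r 0.54, adjusted p = 0.112) or Psme2 (r -0.05, adjusted p = 0.940).

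**Figure D5:**
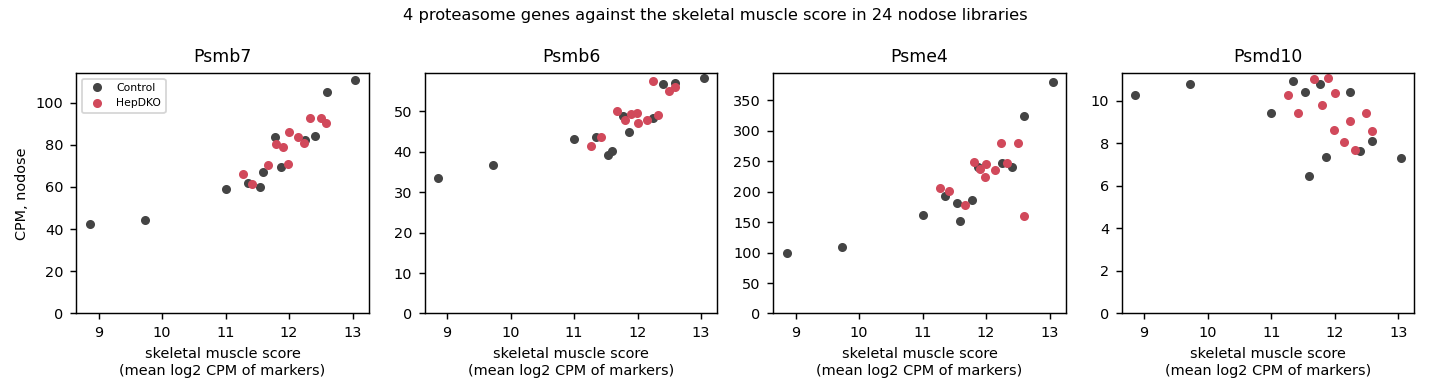
CPM of 4 proteasome genes against the skeletal muscle score (mean log2 CPM of the 5 markers) in the 24 nodose libraries, Control and HepDKO. Psmb7 rises with the score (r 0.94) over 42.2 to 111 CPM, and its lowest library is a Control ZT16 library.

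Across all members, as a description, 29 of 48 had r above 0.5 with the nodose muscle score and 0 had r below -0.5, with a median r of 0.59. Of all 14867 genes, 17.1% had r above 0.5, and the median was -0.03. Within HepDKO the muscle r was lower for several members, at -0.25 for Psma3, -0.14 for Psmc6, 0.08 for Psma4 and 0.13 for Psmd12. With the Schwann cell score the lowest r were -0.75 for Psmd11 and for Psmd12, -0.73 for Psmc4, -0.71 for Psme4, -0.70 for Psma1 and -0.68 for Psmb7. In the arcuate 0 of 48 members had r above 0.5 with the muscle score. In the nodose libraries, besides Psmb7 and Psmb6, the highest r with the muscle score were those of Psme4 and Psmc2. The activator Psme4 had r 0.86 (0.94 in Control and 0.24 in HepDKO), and the ATPase Psmc2 had r 0.86 (0.85 in each genotype). The chaperone Psmd10 (r -0.44) and the inhibitor Psmf1 (r -0.38) were lowest there. Nodose Psme4 shows the range: in time order, 109, 152 and 248 CPM in Control, then 380, 324 and 186, then 181, 241 and 99.2, then 192, 162 and 241. HepDKO libraries stayed between 160 and 281 CPM, within the Control range.

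In the arcuate, 2 relations passed, both with the interferon-stimulated score. Psmb9 gave r 0.58 (permutation p = 0.00234, adjusted p = 0.0281) and rho 0.53 (p = 0.0079, adjusted p = 0.0948). Psme1, whose gene is also induced by interferon, gave r 0.56 (permutation p = 0.00429, adjusted p = 0.0412) and rho 0.45 (p = 0.0287, adjusted p = 0.131). Without the 2 libraries farthest from the median score r fell to 0.42 for each, so these rest partly on those libraries, and r was 0.69 and 0.62 within Control and 0.43 and 0.31 within HepDKO. Psmb8 gave r 0.23 (adjusted p = 0.586). With the macrophage score Psmb9 gave r 0.53 (permutation p = 0.00731, adjusted p = 0.0585) and rho 0.50, and Psme1 r 0.46 (permutation p = 0.0224, adjusted p = 0.135) and rho 0.45. Whether the relations differ between the scores was not tested.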

How the data were processed

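RNA-seq of 24 arcuate and 24 nodose libraries was deposited by the authors as raw gene counts, whole numbers per gene symbol and library. Reads were trimmed with Trim Galore 0.6.10, checked with FastQC 0.11.7 and aligned with STAR 2.7.10b to mm10, per the submitters' processing notes; the counting tool, annotation and strand setting are not given in the sources used here. Tests used edgeR 4.0.16 (robust quasi-likelihood, filterByExpr, TMM, group means) in R 4.3.3, with each tissue alone (16102 and 14867 genes) or both together (17478 genes), and Benjamini-Hochberg adjustment over all genes tested at 0.05. The rhythm test has 2 degrees of freedom at a period of 24 h. CPM values by group and time are scaled within a tissue; levels compared between tissues, and CPM per kb, are scaled over both. Alternatives used DESeq2 1.42.0 and limma 3.58.1.

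The members, the gene lists and the tests were chosen with earlier results of these data known. Named with values were the 6 active-site genes with Psme1 and Psme2 (by their range where a comparison covers 1 time or 1 genotype, or a difference in rhythm or between tissues in the genotype effect), the members past the threshold (up to 5 with the lowest p, or the one with the lowest p where none passed), and for the tissue difference up to 2 per class and direction. On simulated counts the overall genotype test recovered 87% of 1.5-fold changes in the arcuate (15962 genes) and 69% in the nodose (14638 genes). The averaged rhythm test recovered 76% and 25.3% there. On those counts the overall genotype test made 192 calls in the arcuate and 161 in the nodose, against 0 in the libraries of either tissue. Recovery in the libraries themselves, where single libraries stood at the edge for many members at once, was not tested. Each library was a pool, and depth covers counting error only. Some genes of the lists are not reported here.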

Additional observations from a re-analysis of the deposited data

How the results depend on the processing

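The 20 counts over the members were refitted, each where it applied, with RLE size factors, no filter on low counts, DESeq2, a replicate block or marker covariates. Other refits left 3 dominant transcripts out of library sizes, or left 1 library out. A count was called moved where it left 0, reached 0 or changed by a wide ratio, and few moved. The genotype calls were 0 where edgeR called 0 of all genes. The number of score relations past 0.05 was refitted with RLE size factors only and stayed at 5. The arcuate rhythm averaged over genotypes called 2 members in DESeq2 and 0 to 2 when 1 library was left out: Psma7 and Psmf1 without HepDKO ZT4 library 2, Psmb10 and Psmc3 without HepDKO ZT4 library 3, Psmb10 without Control ZT16 library 1, and Psmf1 without Control ZT22 library 1 or library 2. With the skeletal muscle covariate, 27 nodose members were above 0 at ZT16 (44 without it). The nodose count averaged over the times also fell with this covariate, but within the ratio allowed. Leaving out 1 library gave 4 to 10 members above 0 in the nodose at ZT10, the 10 without HepDKO ZT10 library 1. The cause was not tested. The tissue difference of Psme1 passed under 4 alternatives and in 22 of 48 leave-outs. All genes called also moved in DESeq2: 23 in the arcuate and 3 in the nodose for genotype (0 in edgeR), and 1075 and 383 for the averaged rhythm (622 and 198 in edgeR). With the replicate number as a block, 0 members were called for genotype or rhythm, 9 were higher and 32 lower in the nodose, and 33 arcuate and 42 nodose members were above 0. Same-numbered libraries correlated from -0.128 to 0.163 in the arcuate (median 0.02, other pairs -0.01) and from -0.434 to 0.364 in the nodose (median 0.003, other pairs -0.01). A positive correlation of every same-numbered pair was not met, so the libraries were not treated as paired. Libraries that share a batch could miss so strict a criterion, so pairing is not excluded. Of 24 libraries per tissue, 16 arcuate and 11 nodose correlated best with their own number, 1 of 3 possible numbers. That is a hint from the data and not from the design. Nodose depth, down to 1813994 counts, limits low members such as Psmb9.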

Other observations

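Members differed in how much they varied. The SD of log2 CPM over 24 arcuate libraries ran from 0.0513 for Psmd2, a scaffold subunit of the regulatory particle, to 0.476 for Psme2b. Over 24 nodose libraries it ran from 0.125 for the ATPase Psmc1 to 0.566 for the chaperone Psmg4. The ends of both ranges differed in depth. Psmd2 had 3195 to 4446 counts per arcuate library and Psme2b 12 to 50. Psmc1 had 172 to 964 counts per nodose library and Psmg4 3 to 38. Counting error is larger at low counts, and its part in these SDs was not tested. The median correlation between pairs of members, a description over 24 libraries that share depth and preparation, was 0.26 in the arcuate and 0.32 in the nodose libraries.

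Single libraries stood at the edge for many members at once. In the nodose, HepDKO ZT22 library 3 was highest for 18 of 48 members and Control ZT10 library 1 for 15, while Control ZT4 library 1 was lowest for 17 and Control ZT16 library 3 for 14. In the arcuate, HepDKO ZT4 library 3 was highest for 24 and Control ZT22 library 1 lowest for 12. Deviations of arcuate HepDKO ZT4 library 3 correlated across the 48 members with gene GC content (r 0.39) and with log2 length (r -0.43). HepDKO ZT4 library 1 had like values (GC r 0.38, length r -0.38). For length, r was also -0.50 in HepDKO ZT10 library 1 and -0.42 in HepDKO ZT10 library 2, and for GC it was -0.47 in Control ZT22 library 1; genes are not independent replicates.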
